A study of Mus musculus with 24 samples.

Results

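The comparison described here is the response of wild-type mouse macrophages to a second dose of interleukin-4 (IL-4). It sets IL-4-experienced cells that were restimulated for 3 h against the same kind of cells left washed-out. The members are all genes that reach 1 CPM (counts per 1000000 reads) on average in either group, which gave 11958 of the 23420 genes in the table. Bone marrow-derived macrophages from male C57BL/6 mice aged 3 months had been grown for 6 days with M-CSF, the growth factor that turns marrow precursors into macrophages. The washed-out group then had IL-4 for 24 h, was washed, and spent a further 24 h in differentiation medium. The restimulated group had the same pretreatment and washout and then IL-4 again for 3 h, so both groups carry the earlier exposure. IL-4 was used at 20 ng per µl, as labelled. Poly-A RNA was sequenced from 2 samples per group, and the labels do not say whether these came from separate animals or cultures. Each p-value below therefore measures only the spread between these samples, which may be technical.

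For reference, 3 further pairs of groups from the same experiment are used. Wild-type cells that had never seen IL-4 were unstimulated or had a first 3 h exposure. Cells labelled PpargKO, which are meant to lack the nuclear receptor PPARγ, were pretreated and washed, and were then left or restimulated in the same way. The labels do not say which part of Pparg was deleted or by what Cre. Pparg reads stood at 26.6 CPM in washed-out and 40.9 CPM in restimulated knockout-labelled cells, against 20.8 and 34.0 CPM in wild type, so these reads do not mark the knockout.

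IL-4 binds a receptor that activates the kinases JAK1 and JAK3 and, through them, the transcription factor STAT6. STAT6 enters the nucleus, binds palindromic DNA elements and switches on genes of the alternatively activated macrophage, among them arginase and lectin receptors. It also switches on its own brakes, the SOCS and CISH proteins, which shut off cytokine receptors. Macrophages exposed to IL-4 keep part of their altered chromatin after the cytokine is gone, and a second exposure reads how such cells respond from that altered start.

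The deposited table holds 1 averaged column per group, and the values of both libraries of each group were recovered from it. They are called the deeper and the shallower library, since their replicate numbers are not known. In genes whose values were separated, the restimulated libraries held 12735567 and 7138430 reads and the washed-out libraries 8121739 and 7105299. At these depths 3 reads correspond to 0.183 and 0.329 CPM in the restimulated and to 0.301 and 0.340 CPM in the washed-out libraries. Macrophage genes were abundant in both groups: Csf1r, the M-CSF receptor, had mean levels of 4724.0 and 3718.2 CPM in washed-out and restimulated cells, and the lysosomal protein Cd68 had 1409.6 and 1442.5 CPM. The restimulated libraries stand apart from each other. Between them 1711 of 11876 genes lay more than 2-fold higher in the deeper and 250 more than 2-fold higher in the shallower library. In the other groups except the washed-out one, 2 to 46 genes lay that far apart. In the washed-out pair, 414 of 11914 genes were more than 2-fold higher in the deeper library and 4 in the shallower. Among them is Gapdh, whose sequence recurs in other genes, at 51.4 and 0.681 CPM, and 1182 compared genes were marked as sensitive to how such reads were counted. Where leaving out 1 restimulated library moved the fold of a called gene named below by over 1.5 times, the values of both libraries or the values without each are given.

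By the ratio of group means (log2, with 1 CPM added to each mean), 1278 genes (10.7%) were more than 2-fold higher and 428 (3.58%) more than 2-fold lower after restimulation. Of the 1278, 253 were sensitive to counting and 618 were more than 2-fold higher in the deeper than in the shallower restimulated library. Both restimulated libraries lay above both washed-out libraries for 3715 of 11874 genes (31.3%) and below them for 3185 (26.8%). The test was limma on log2 of CPM plus 1 over all 16 libraries of the experiment, with a Benjamini-Hochberg adjusted p under 0.05. It called 315 genes higher (2.63%) and 267 lower (2.23%), and "rose" and "fell" below refer to these calls. The groups did not overlap for 312 of the 315 and 264 of the 267, so this separation comes with almost every call. At an unadjusted p under 0.05, 1222 genes were higher and 1085 lower. The restimulated group had a weight of 0.0793 in the fit, against 0.823 to 2.28 for the other groups, and the median standard error (SE) of a difference was 0.39 on the log2 scale. Fits that left out 1 library gave its group no spread of its own, from which the weight is set. Their counts of calls therefore do not test the calls above and are not given. When only the 4 libraries of the comparison were fitted, limma called 1 gene, so the calls rest on the spread shared with the other groups.

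The genes that rose most in both restimulated libraries included brakes and effectors of IL-4 signalling. Socs1, which blocks JAK kinases, stood at 1.20 and 0.794 CPM in the washed-out libraries (deeper, then shallower, here and below) and at 140.2 and 307 CPM in the restimulated ones. Its log2 difference by limma was 6.71 (SE 0.42, adjusted p = 3.7e-07). Both restimulated values were far above both washed-out values. Arg1, the arginine-splitting enzyme of alternatively activated macrophages, went from 1.00 and 2.27 to 150.0 and 251 CPM (log2 difference 6.25, SE 0.76, adjusted p = 0.00018). Pdcd1lg2, which encodes the T cell inhibitory ligand PD-L2, went from 1.00 and 1.70 to 122 and 148 CPM (log2 difference 5.86, SE 0.53, adjusted p = 1.1e-05). Both genes were almost silent in the washed-out cells. Their restimulated libraries lay within 2-fold of each other, which was also a rule for choosing leading genes. Tmem26, a membrane protein, rose from 7.93 and 7.94 to 245 and 281 CPM (log2 difference 4.88, SE 0.42, adjusted p = 9.2e-06). Cish, another inhibitor of cytokine receptors, rose from 3.71 and 6.24 to 132 and 225 CPM (log2 difference 4.89, SE 0.50, adjusted p = 3.6e-05). For neither gene did the groups overlap.

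Further leaders, taken from called genes whose restimulated libraries lay within 2-fold of each other, were Rasgrp1, an activator of Ras, at 88.6 and 85.3 CPM after restimulation (log2 difference 5.79), and the homeobox gene Msx3 (5.77). They also include the protease inhibitor Serpina3g (4.66), the sodium channel Scn3a (4.53), the myeloid receptor Tarm1 (4.54) and the signalling inhibitor Socs2 (4.54). Lower down that order stood Slc7a2, an importer of arginine, which rose from 11.1 and 12.6 to 182 and 141 CPM (log2 difference 3.65, SE 0.31). Prps1, which makes the sugar phosphate that nucleotides are built on, rose from 14.3 and 14.1 to 150.1 and 213 CPM (3.57, SE 0.35). In each of these genes both restimulated libraries were above both washed-out libraries, as in 312 of the 315 genes that rose.

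**Figure D1:**
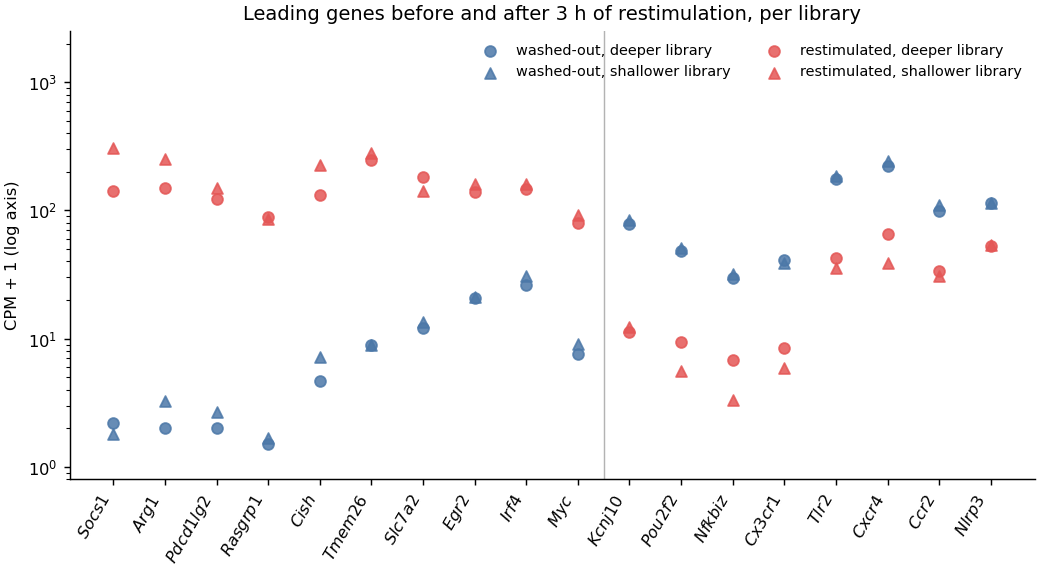
CPM plus 1 on a log axis for 18 genes named in the text, in each of the 4 libraries (blue washed-out, red restimulated, circles deeper, triangles shallower), with genes that rose left of the grey line and genes that fell right of it. Socs1 sits near 1 CPM before and at 140.2 and 307 CPM after restimulation, and Tlr2 drops from 174 and 184 to 41.3 and 34.6 CPM.

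The promoters of these leaders are shown because STAT proteins bind inverted repeats of TTC and GAA. With 4 bases of any kind between TTC and GAA the repeat has the form that STAT6 prefers, and with 3 bases that of most other STATs. Each element reads the same on both strands, so 1 search covers both. Sequences are from RefSeq on the GRCm38.p6 build and run from 250 bases before to 50 after the annotated gene start, 5′ to 3′ on the strand of the gene, with matches to either element in capitals. Pdcd1lg2 lies on the plus strand at chr19:29410669-29410968 and holds 1 match with the spacing of 4, which begins 82 bases before the start. Tmem26, on the plus strand at chr10:68723496-68723795, holds 2 such matches, 227 and 41 bases before the start. Cish, on the plus strand at chr9:107296409-107296708, holds 2 matches with the spacing of 3, both at or just after the start. Socs1, the gene with the highest log2 difference among those named so far, lies on the minus strand at chr16:10785487-10785786 and has neither element in this window.
Pdcd1lg2: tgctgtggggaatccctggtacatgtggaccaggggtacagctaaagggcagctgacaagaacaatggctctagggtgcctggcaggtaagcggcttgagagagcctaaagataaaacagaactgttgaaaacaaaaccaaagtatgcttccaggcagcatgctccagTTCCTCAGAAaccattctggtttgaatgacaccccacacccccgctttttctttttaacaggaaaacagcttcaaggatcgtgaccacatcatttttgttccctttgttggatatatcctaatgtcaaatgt
Tmem26: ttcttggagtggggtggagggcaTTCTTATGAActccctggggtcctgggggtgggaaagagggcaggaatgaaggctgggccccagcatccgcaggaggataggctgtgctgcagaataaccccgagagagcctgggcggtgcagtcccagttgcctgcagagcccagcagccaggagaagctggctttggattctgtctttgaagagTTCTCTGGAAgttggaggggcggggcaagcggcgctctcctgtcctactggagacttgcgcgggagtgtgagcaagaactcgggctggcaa
Cish: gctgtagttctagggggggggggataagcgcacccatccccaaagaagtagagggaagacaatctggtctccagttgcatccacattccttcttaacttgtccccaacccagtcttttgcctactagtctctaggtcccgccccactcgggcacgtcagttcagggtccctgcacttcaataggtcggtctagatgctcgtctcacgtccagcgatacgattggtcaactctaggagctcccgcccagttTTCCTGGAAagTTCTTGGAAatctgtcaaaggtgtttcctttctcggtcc
Socs1: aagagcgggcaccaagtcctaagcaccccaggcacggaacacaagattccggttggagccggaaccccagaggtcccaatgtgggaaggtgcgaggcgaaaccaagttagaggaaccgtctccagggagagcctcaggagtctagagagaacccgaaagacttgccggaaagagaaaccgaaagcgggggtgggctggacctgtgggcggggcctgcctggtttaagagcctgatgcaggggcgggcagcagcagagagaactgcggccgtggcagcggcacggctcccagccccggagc
There were 21 leading genes that rose (the 20 with the highest ratios whose restimulated libraries lay within 2-fold, and Socs1). Of these, 15 had a promoter entry, and 2 held the element with the spacing of 4 and 3 the one with the spacing of 3. Of 20 leading genes that fell, 17 had an entry, and 0 and 1 held these elements. These sets are small, and no enrichment was tested. Among all 315 genes called higher, 249 matched an entry, of which 8.43% held the element with the spacing of 4 and 8.43% the one with the spacing of 3. Among the genes called lower, 205 matched and the shares were 3.90% and 8.29%. These shares count a gene if any of its promoter entries held the element. Counted in the same way, 6.66% and 8.16% of 8984 genes compared and not called did so. Over all 32851 promoters of the same length, each counted singly, the shares were 6.95% and 8.30%. A match is a string of letters in this window only, and no binding was measured here.

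Among 36 compared markers of the IL-4 and STAT6 programme, 22 rose and none fell, with a median log2 ratio of 1.84 against 0.07 over all genes. Members that rose include Ccl24, an eosinophil-attracting chemokine, from 2.21 and 1.82 to 36.4 and 85.6 CPM (log2 difference 4.24), and Ear11, a ribonuclease of the eosinophil family, from 2.31 and 2.16 to 25.0 and 56.9 CPM (3.58). Egr2, a transcription factor that IL-4 induces in macrophages, rose from 19.6 and 20.1 to 138 and 160.3 CPM (log2 difference 2.85, SE 0.26). The lectin receptors Mgl2 (1.95), Clec10a (1.63) and Clec7a (1.54) rose as well, as did the adhesion protein Cdh1 (3.76), the growth factor Hbegf (3.95, at 43.0 and 12.1 CPM after restimulation) and the sterol hydroxylase Ch25h (3.73). The members that did not pass include several that were already abundant after washout. Retnla, which encodes the secreted protein RELMα, had group means of 2760.4 and 4479.6 CPM (log2 difference 0.70, SE 0.95, adjusted p = 0.75), and its libraries could not be separated. The chitinase-like gene Chi3l3 had means of 701 and 1002.7 CPM (0.52, adjusted p = 0.47), and the mannose receptor Mrc1 had 3359.0 and 3256.7 CPM (-0.04, adjusted p = 0.95). Fn1, which encodes the matrix protein fibronectin, was called higher, but it read 967 CPM in the deeper and 73.7 CPM in the shallower restimulated library against 18.6 and 20.9 CPM before.

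Among 21 genes of IL-4 signalling and its feedback, 4 rose and none fell, with a median log2 ratio of -0.33. The median limma difference was -0.35 over the list. It was -0.55 without the deeper and -0.03 without the shallower restimulated library, against 0.05 over all genes each time. In knockout-labelled cells 7 were called higher and 6 lower, where 19.3% and 16.5% of all genes were. The 4 were Socs1, Cish, Socs2 and Il4ra, the IL-4 binding receptor chain, which went from 257 and 253 to 536 and 645 CPM (log2 difference 1.20, SE 0.21, adjusted p = 0.0045). Stat6 itself stood at 331 and 323 CPM before and 261 and 206 CPM after (log2 difference -0.49, SE 0.20, adjusted p = 0.18), and both restimulated values were below both washed-out values. Of 13 arginine and polyamine genes, 4 rose and none fell: Arg1, Slc7a2, the arginine transporter Slc7a1 (1.59) and the spermidine synthase Srm, from 7.23 and 7.71 to 64.1 and 72.9 CPM (3.03, SE 0.54). Slc7a1 read 81.1 and 28.5 CPM after restimulation, and its difference was 0.85 without the deeper and 2.33 without the shallower library. Odc1, which makes putrescine, read 11.3 and 6.13 CPM before and 42.2 and 26.9 CPM after without passing (1.89, adjusted p = 0.081), and it is sensitive to counting.

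Transcription factors of early responses were the next large group, with 12 of 32 higher, 1 lower and a median log2 ratio of 0.98. Myc, a driver of growth, rose from 6.63 and 8.06 to 79.0 and 91.3 CPM (log2 difference 3.37, SE 0.51, adjusted p = 0.0013). Id1 and Id3, which sequester other factors, rose by 3.78 and 3.33, Id3 from 6.22 and 4.77 to 68.7 and 59.4 CPM. Irf4, which IL-4 uses to shape alternative activation, rose from 25.0 and 30.0 to 145 and 160.2 CPM (2.44, SE 0.27). Bhlhe40 (2.63), Ier3 (2.52) and Klf4 (1.56) also rose. Batf3 rose by 2.79 on the log2 scale, to 28.9 and 87.0 CPM, with 3.57 without the deeper and 2.01 without the shallower restimulated library. Klf6 fell from 295 and 343 to 207 and 104 CPM (-1.11, SE 0.27). Egr1, an immediate early gene, was at 20.5 CPM in the deeper and 1.97 CPM in the shallower restimulated library and did not pass (adjusted p = 0.2).

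Ribosome biogenesis genes and Myc targets had 13 of 18 members higher, none lower and a median log2 ratio of 1.84. For all 18 both restimulated libraries lay above both washed-out libraries, where 31.3% of all genes did so. Nop2, a methyltransferase that modifies ribosomal RNA, rose from 30.0 and 31.2 to 87.2 and 96.0 CPM (log2 difference 1.55, SE 0.22, adjusted p = 0.00075). Nolc1, a nucleolar phosphoprotein, rose from 27.5 and 31.1 to 107 and 108 CPM (1.84, SE 0.27), and the small nucleolar ribonucleoprotein components Nop58 (2.00) and Dkc1 (2.00) rose with them. The summed level of the 18 was 781 and 743 CPM in washed-out and 1808.3 and 1743.6 CPM in restimulated libraries. The list holds Myc itself and Odc1, which are also counted in lists above. None of 26 cell cycle genes was called (limma), with 0 of them more than 2-fold in either direction and a median log2 ratio of 0.07.

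Inflammatory genes and chemokines split. Of 18 inflammatory and NF-κB genes, 3 rose: the monocyte chemokines Ccl7, from 4.62 and 6.24 to 83.1 and 169 CPM (log2 difference 4.23, SE 0.35), and Ccl2 (2.50), and the co-stimulator Cd40 (2.28). In the same list 2 fell. Nfkbiz, a nuclear partner of NF-κB, fell from 28.6 and 31.0 to 5.84 and 2.30 CPM (-2.69, SE 0.52), and Nlrp3, the inflammasome sensor, from 113 and 113 to 52.0 and 53.0 CPM (-1.09, SE 0.22, adjusted p = 0.0084). Of 20 chemokines and chemokine receptors, 3 rose, all of them ligands (Ccl24, Ccl7 and Ccl2), and 5 fell. Cxcr4, the receptor for CXCL12, fell from 221 and 241 to 64.5 and 38.0 CPM (-2.20, SE 0.28, adjusted p = 0.00031). Ccr2, the receptor for CCL2 and CCL7, fell from 98.8 and 109 to 32.6 and 29.6 CPM (-1.71, SE 0.33). Ccr1 (-1.01) and the fractalkine receptor Cx3cr1, from 40.0 and 38.1 to 7.49 and 4.93 CPM (-2.50, SE 0.50), fell too.

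The genes that fell most also included receptors and regulators of other kinds. Kcnj10, a potassium channel, fell from 77.6 and 82.9 to 10.3 and 11.4 CPM (log2 difference -2.78, SE 0.35, adjusted p = 0.00027). Pou2f2, the transcription factor Oct-2, fell from 47.4 and 49.8 to 8.40 and 4.60 CPM (-2.77, SE 0.46), and the orphan receptor Gpr141 from a mean of 109 to one of 16.7 CPM (-2.63, SE 0.43). Tlr2, a sensor of bacterial lipoproteins, fell from 174 and 184 to 41.3 and 34.6 CPM (-2.21, SE 0.28). The groups did not overlap for any of these 4. Nfatc2, a calcium-dependent transcription factor, fell by 2.19, the ADP receptor P2ry13 by 2.13, the phosphatase Ptpn22 by 2.04 and the pro-apoptotic gene Bmf by 1.97 on the log2 scale. Of 22 macrophage identity genes, 5 fell and none rose, with a median log2 ratio of -0.35. Besides Cx3cr1 and Ccr2 these were Mertk, a receptor for dying cells (-1.79), the sialic acid receptor Siglec1 (-1.38) and the integrin chain Itgam (-1.09), whose libraries could not be separated. Mertk read 59.9 and 19.8 CPM after restimulation, and its difference was -2.56 without the deeper and -1.01 without the shallower library. For Siglec1, at 139.9 and 58.1 CPM, these values were -2.00 and -0.75.

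Interferon-stimulated genes had a median log2 ratio of -0.76 over 28 members, 9 of them more than 2-fold lower and 2 more than 2-fold higher, but few passed the test. Rsad2, an antiviral enzyme, fell from 29.0 and 32.2 to 6.51 and 3.84 CPM (log2 difference -2.39, SE 0.64, adjusted p = 0.044), and Oas2 fell by 1.26. Neither was called by limma-voom. Irf7, a regulator of interferon genes, rose from 34.8 and 42.7 to 94.6 and 175 CPM (1.71, SE 0.29, adjusted p = 0.0028). Ifit2, an antiviral effector, read 31.4 and 46.1 CPM before and 10.5 and 7.78 CPM after, and did not pass (-1.96, SE 0.59, adjusted p = 0.068). For 20 of the 28 both restimulated libraries lay below both washed-out libraries, where 26.8% of all genes did so. The median limma difference was -0.83 without the deeper and -0.77 without the shallower restimulated library, against 0.05 over all genes each time.

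In the MHC class II list 1 of 11 genes was called. Ciita, the master activator of class II genes, fell from 127 and 119 to 29.3 and 22.5 CPM (log2 difference -2.22, SE 0.61, adjusted p = 0.046). The class II chains it controls did not pass and differed between the restimulated libraries: H2-Ab1 read 875 and 841 CPM before and 445 and 1087.6 CPM after (-0.30, SE 0.43, adjusted p = 0.76). The summed list was 3256.4 and 3155.2 CPM in washed-out cells and 1758.8 and 4103.3 CPM after restimulation, so the restimulated libraries lay on both sides of the washed-out ones.

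Few genes of the lipid and osteoclast lists were called. Of 21 PPARγ targets, 1 fell, the fatty acid importer of mitochondria Cpt1a (log2 difference -0.97, SE 0.26), and none rose, with a median log2 ratio of 0.36. Limma-voom called 3 of these targets higher and none lower, beside 498 and 218 of all 11839 genes. The median limma difference of the list was 0.42 without the deeper and 0.28 without the shallower restimulated library. Pparg stood at 19.0 and 22.6 CPM before and 34.8 and 33.3 CPM after (0.69, SE 0.42, adjusted p = 0.4), and the groups did not overlap. Of 12 LXR and cholesterol efflux genes 1 fell, the sterol exporter Abca1, from 358 and 436 to 231 and 31.8 CPM (-2.18, SE 0.51, adjusted p = 0.022). By limma, 0 of 21 sterol and fatty acid synthesis genes and 0 of 11 osteoclast and fusion genes were called, with medians of 0.20 and -0.04. For the sterol and fatty acid list the median limma difference was 0.35 without the deeper and 0.08 without the shallower restimulated library. In knockout-labelled cells 11 of its genes were called higher and 0 lower, and at the first exposure 11 and 1. The osteoclast and fusion list had 3 and 4 such calls in knockout-labelled cells and 1 and 3 at the first exposure. The median SE was 0.12 and 0.11 in these comparisons against 0.39 here, so the absence of calls here does not show a lack of response. Of 19 glycolysis genes the glucose transporter Slc2a1 rose (1.58, SE 0.29). Of 27 matrix remodelling genes, 6 rose and 3 fell. The fallers were the collagenase Mmp8, the clotting factor gene F13a1 and Tgfbi, which went from 1374.7 and 1360.3 to 576 and 863 CPM (-0.95). Of the 6 that rose, Plau, the plasminogen activator urokinase, had like values in both restimulated libraries (204 and 196 CPM, from 97.9 and 103), while Timp1 (227 and 8.99 CPM), Timp3 (451 and 17.0 CPM), Serpinb2 (48.4 and 1.86 CPM) and Fn1 were mostly in the deeper library. The sixth was the metalloprotease Adam8, whose restimulated libraries could not be separated.

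**Figure D2:**
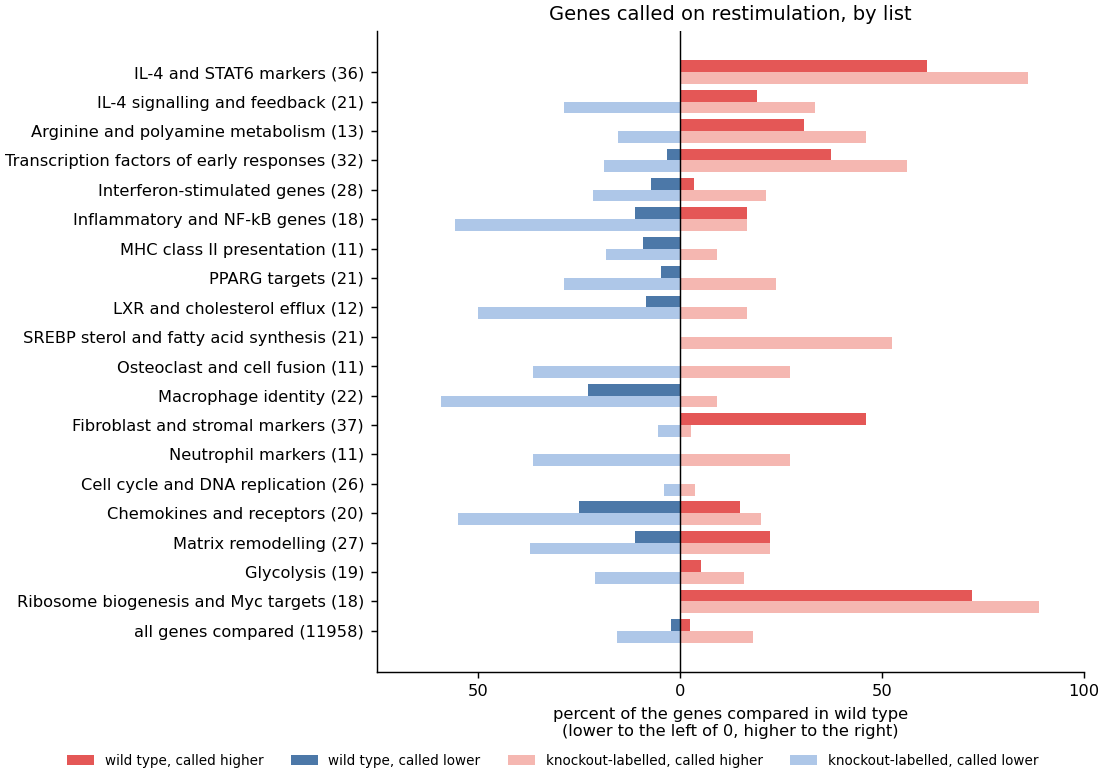
Percent of each list's genes (number compared in wild type in brackets) that limma called higher (right) or lower (left) on restimulation, in wild-type (dark) and knockout-labelled cells (light). The IL-4 marker and ribosome biogenesis lists have 22 of 36 and 13 of 18 members higher in wild type and no member lower in either genotype.

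The fibroblast and stromal list stood mostly in 1 of the restimulated libraries. Summed over 39 members, it stood at 117 and 122 CPM in the washed-out libraries, at 334 CPM in the shallower and at 7105.2 CPM in the deeper restimulated library. All 14 libraries outside the restimulated group ranged from 71.2 to 154 CPM. The deeper restimulated library was the highest of all 16 for 38 of the 39 members. Col1a1, a chain of type I collagen, read 2.11 and 4.20 CPM before and 492 and 16.9 CPM after, and the matrix crosslinking enzyme Lox read 0.402 and 0.794 CPM before and 364 and 13.8 CPM after. Of 37 compared members, 34 were more than 2-fold higher by the ratio of means, and limma called 17 higher. Of the 39 summed members, only the adhesion receptor Vcam1 was not highest in the deeper restimulated library. It read 22.3 and 25.2 CPM before and 14 and 11.6 CPM after. Some defining stromal markers stayed under 1 CPM in the deeper restimulated library, with Lum at 0.0609, Dcn at 0.791, Mfap5 at 0.487 and Thy1 at 0.913 CPM, though each had its highest value there, for Lum one under the level of 3 reads. The summed neutrophil list was also highest there, at 444 CPM, against 253 CPM in the shallower restimulated library and 135 to 269 CPM in the other 14, and 7 of its 13 members were highest there. So were the sums of the mast cell list, at 5.90 CPM against 1.64 CPM in the shallower library and 0.359 to 2.64 CPM in the other 14, and of the B cell list, at 8.82 CPM against 5.48 CPM and 2.09 to 4.31 CPM. Of the lists for other cell types, 1 of 5 endothelial genes rose, Pecam1, an adhesion receptor that leukocytes carry too (17.0 and 16.2 CPM, from 1.51 and 2.04). None was called by limma among 5 osteoblast and adipocyte, 3 dendritic cell, 2 B cell, 2 erythroid and megakaryocyte, 1 mast cell, 1 eosinophil and 1 T and NK cell genes that could be compared. Whether RNA from other cells was present, and its part in the results of the comparison, was not tested. In bulk RNA more cells of a type cannot be told apart from more RNA per cell.

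This bears on the genes called higher. Of the 315, 70 were more than 8-fold higher in the deeper than in the shallower restimulated library, and 16 of the 70 belong to the fibroblast list. They include Tnc, the matrix protein tenascin C, at 392 and 12.5 CPM, Col5a2 at 252 and 7.89 CPM, and Csf1, which encodes M-CSF, at 456 and 15.5 CPM. In 63 of the 70 the washed-out mean was under 1 CPM, and 62 were too low to be compared in knockout-labelled cells, where 1 was called higher. Of the other 245, 239 were also called higher on restimulation in knockout-labelled cells. None of the 267 genes called lower had such a gap.

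**Figure D3:**
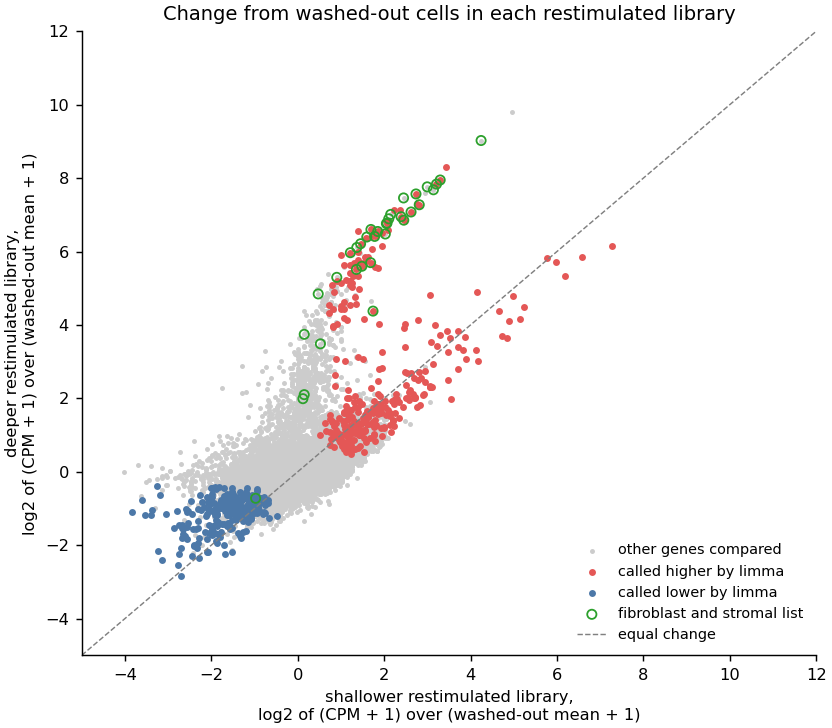
Log2 change of each separated gene from the washed-out mean in the shallower (x axis) and deeper (y axis) restimulated library, with 1 CPM added, genes called by limma in red and blue, and the fibroblast list ringed in green. Most fibroblast genes lie in a separate arm far above the dashed line of equal change, which also holds most of the 70 genes called higher with more than an 8-fold gap between the libraries.

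**Figure D4:**
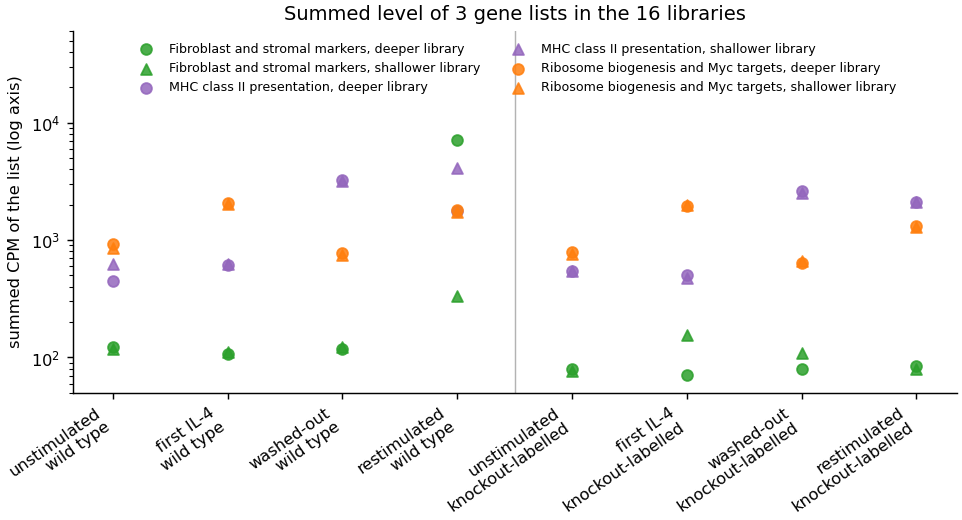
Summed CPM on a log axis of the fibroblast, MHC class II and ribosome biogenesis lists in the deeper (circles) and shallower (triangles) library of each of the 8 groups. The fibroblast sum is 7105.2 CPM in the deeper restimulated wild-type library and at most 334 CPM elsewhere, and the ribosome biogenesis sum rises with IL-4 in both libraries of each pair.

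The restimulated libraries also differed by transcript length. For transcripts up to 1000 bases the shallower library exceeded the deeper by a median log2 difference of 0.78, and for those over 8000 bases it lay below by a median of -1.04. The same medians in the washed-out pair were -0.05 and 0.15. The share of genes called lower followed this order, from 0 of 422 genes up to 1000 bases to 5.05% of 614 genes over 8000 bases, while the share called higher lay between 1.90% and 3.12% in every length class. The median transcript was 4656 bases long among genes that fell, 2986 among genes that rose and 3122 over all genes compared. The deeper library alone showed no such order against the washed-out mean, with medians between -0.01 and 0.06 in every length class. When the shallower library was moved to the deeper one's profile over length, an alternative chosen after the data had been seen, 254 of the 267 lower and all 315 higher calls were made again, among 521 and 980 calls. That move itself brings the restimulated libraries closer together, and their weight is set from the gap between them. Calls made again therefore do not test the part of transcript length, which was not tested in single genes either.

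**Figure D5:**
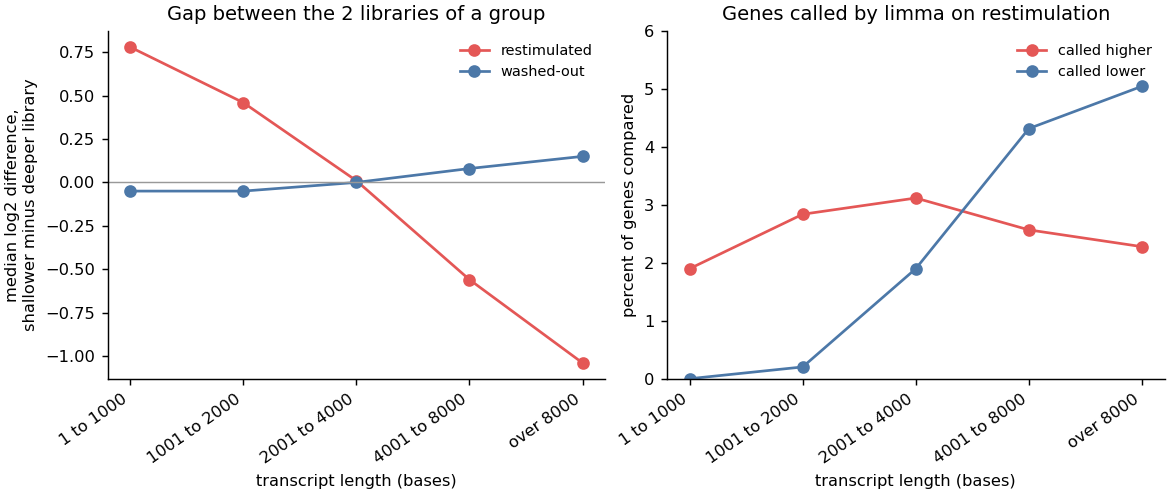
Left, median log2 difference between the shallower and the deeper library by transcript length, in restimulated (red) and washed-out (blue) cells. Right, percent of compared genes that limma called higher or lower on restimulation by transcript length; the share called lower climbs from 0 in the shortest to 5.05% in the longest class.

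The response was next set beside that to a first exposure, which compares 2 other groups of wild-type cells and shares no library with it. At the first exposure limma called 2805 of 11345 genes higher (24.7%) and 2847 lower (25.1%), where the median SE was 0.11. Of the 315 genes that rose on restimulation, 240 (76.2%) also rose at the first exposure, which is 8.56% of the genes that rose there. Of the 267 that fell, 263 (98.5%) also fell at the first exposure, or 9.24% of that list. Tested as a difference of responses, 0 genes (0%) were higher and 3 of 12074 (0.0248%) were lower at restimulation, with 726 genes at an unadjusted p under 0.05 and a median SE of 0.41. The 3 were Cd274, Nabp1 and Slc37a2. Cd274, the gene of the T cell inhibitory ligand PD-L1, went from 27.5 and 27.9 to 243 and 234 CPM at the first exposure and from 74.9 and 82.5 to 152 and 103 CPM at restimulation (difference of responses -2.40, SE 0.33, adjusted p = 0.022). Nabp1, a single-strand DNA binding protein, went from 26.7 and 26.7 to 131 and 128 CPM and then from 52.3 and 65.8 to 82.9 and 76.1 CPM (-1.80, SE 0.29, adjusted p = 0.049). Slc37a2, a sugar phosphate transporter, went from 307 and 314 to 964 and 978 CPM and then from 275 and 269 to 397 and 227 CPM (-1.50, SE 0.23, adjusted p = 0.049). In each the first response was the larger. None of the 3 was called by limma-voom, with no minimum or by a fit of only the 4 groups. Fits without 1 library left its group no spread of its own, so their counts are not given.

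Other genes give 2 responses that cannot be told to differ at this precision. Cish was at 0.313 and 0.662 CPM in unstimulated and 159 and 139 CPM in first-exposed cells, a log2 difference of 6.66 against 4.89 at restimulation (difference -1.77, SE 0.52, adjusted p = 0.33). Retnla had means of 5.38 and 102 CPM at the first exposure and 2760.4 and 4479.6 CPM at restimulation (difference of responses -3.32, SE 0.99, adjusted p = 0.37). Id3 went from 20.6 and 24.4 to 53.4 and 58.5 CPM at the first exposure, a smaller log2 difference (1.28) than the 3.33 at restimulation (difference 2.05, SE 0.54, adjusted p = 0.25). Over the IL-4 marker list the median difference of responses was -0.28, with 28 of 36 members below 0 and none called. For interferon-stimulated genes it was -0.86, with 28 of 28 members below 0 and none called, against 5558 of 11958 genes below 0 and a median of 0.03 over all genes. At the first exposure 11 of these 28 rose and 2 fell.

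The response was last set beside that of knockout-labelled cells restimulated in the same way. Limma called 2177 of 11282 genes higher (19.3%) and 1865 lower (16.5%) there, with a median SE of 0.12. Of the wild-type calls, 240 (76.2%) of the higher and 246 (92.1%) of the lower were also called in knockout-labelled cells, which is 11.0% and 13.2% of the calls made there, and none was called the other way. Socs1 went from 1.56 and 2.11 to 232 and 223 CPM, and Arg1 from 0.837 and 2.96 to 208 and 181 CPM. Their log2 differences were 6.34 and 6.18, beside 6.71 and 6.25 in wild type. The IL-4 marker list had 31 and the ribosome biogenesis list 16 members higher and none lower. Tested as a difference of responses, 0 of 12072 genes (0%) were called in either direction by limma and 0 by limma-voom, with 1124 genes at an unadjusted p under 0.05 and a median SE of 0.41. Slc7a2 had a difference of -1.05 (SE 0.33, adjusted p = 0.3), with 182 and 141 CPM in restimulated wild-type and 299 and 310.3 CPM in restimulated knockout-labelled cells. Fits without 1 of the wild-type libraries left that group no spread of its own, so their counts are not set beside these.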

How the data were processed

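RNA was sequenced from 24 samples, of which the 16 of the memory experiment (8 groups of 2) are used here and the 8 of another experiment are not. The authors deposited, per the file headers, 1 averaged signal per gene and group on the CPM scale, with column sums of 957489 to 1022961. TopHat2 2.0.7, Cufflinks 2.0.2 and mm10 are named in the submitters' processing notes, and the counting tool is not given in the sources used here. Each averaged value above 0 was searched for the pair of whole read counts that gives it, and 113239 of 113692 (99.6%) had 1 solution. Genes left unseparated carried 12.2 to 23.7% of the CPM, entered the fit as 1 observation of weight 2, and are given as group means. Reads in separated genes ran from 4413217 to 12735567 per library, so 3 reads are 0.183 to 0.526 CPM.

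Limma 3.58.1 in R 4.3.3 was fitted to log2 of CPM plus 1 (limma-trend, 1 coefficient and 1 weight per group), with Benjamini-Hochberg adjustment over all genes with at least 1 CPM in a group compared. The script was tested on simulated data. A gene counted as sensitive to counting where at least 30% of its sampled 50-base words occur in other genes or its washed-out libraries lay at least 2-fold apart.

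The members and the gene lists were chosen with earlier results of these data known, so no list is independent support for its direction. Genes to name were the 14 highest and 14 lowest called ratios, the 3 leading members of each list and the one with the widest gap between restimulated libraries, the 10 widest such gaps each way, the leading differences of responses, and 9 genes always. The leaders with restimulated libraries within 2-fold, and other list members named, were chosen after their values were seen. Alternatives were another pseudocount, minimum, scaling, weighting and model, a term for counting kind, length matching, and each library left out. The term for counting kind set all knockout-labelled libraries and the shallower wild-type washed-out library apart from the rest. It is therefore aligned with genotype except in that library. The edgeR method was not run. Some genes are not reported here.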

Additional observations from a re-analysis of the deposited data

Results flagged for a closer look

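Restimulation and the first exposure differed for 3 genes by the test of the difference of responses (limma, Benjamini-Hochberg adjusted), all with the larger response at the first exposure. The log2 difference of responses was -2.40 for Cd274 (SE 0.33, adjusted p = 0.022), -1.80 for Nabp1 (SE 0.29, adjusted p = 0.049) and -1.50 for Slc37a2 (SE 0.23, adjusted p = 0.049). Nabp1 stood higher in both restimulated than in both washed-out libraries (82.9 and 76.1 against 52.3 and 65.8 CPM), and so did Cd274 (152 and 103 against 74.9 and 82.5 CPM). For Slc37a2 the restimulated libraries, at 397 and 227 CPM, lay on both sides of the washed-out ones, at 275 and 269 CPM. In knockout-labelled cells Cd274 went from 82.5 and 66.9 to 238 and 254 CPM on restimulation. Nabp1 went from 45.1 and 43.2 to 110.4 and 100.4 CPM there, and Slc37a2 from 221 and 238 to 265 and 296 CPM. At the first exposure of knockout-labelled cells the means went from 35.2 to 295, 25.7 to 135 and 263 to 836 CPM, in the same order. The restimulation responses of the genotypes were not called different for any of them (limma, adjusted p = 0.3, 0.39 and 0.88).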

How the results depend on the processing

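No paired analysis was possible because the averaged columns carry no replicate numbers. The 582 limma calls for restimulation became 4452 with no group weights, 211 with no minimum, 1 with only the groups compared and 1501 with the length-matched library, and leaving out 1 library gave 724 to 7064. With limma-voom the split was 498 higher and 218 lower, with TMM scaling 298 and 300, and with a pseudocount of 0.25 CPM 305 and 329; 291 and 215 of the 315 and 267 calls were kept under limma-voom. None of the calls went the other way under any of these settings. The 3 calls for restimulation against the first exposure became 98 with no group weights, 7 with counting kind as a term, 107 with the length-matched library, and 0 with limma-voom, with no minimum or with only the groups compared; leaving out 1 library gave 0 to 3549. The 0 calls for wild type against knockout-labelled cells became 16 with no group weights, 1 with only the groups compared, 4 with counting kind as a term and 59 with the length-matched library, and leaving out 1 library gave 0 to 5077. The cause of these shifts was not tested. The 1706 genes beyond 2-fold ranged from 1336 to 2065 under other settings and from 1467 to 2551 without 1 library, with 1144 higher and 1407 lower without the deeper restimulated library. Centring on the median gave 1140 higher and 567 lower. TMM scaling moved the median over all genes from 0.05 to 0.02. The fibroblast sum averaged 3719.6 CPM over the restimulated libraries, 334.0 and 7105.2 CPM in each alone. Of 896 recomputed values for 151 named genes, 137 moved by more than the spread. That spread came from the same 4 libraries and widens with the gap between the restimulated ones. The count therefore does not measure how stable the values are. Reversal was counted only for called genes, and 0 values reversed there. Genes not called could change sign, as Axl did, with a limma difference of 1.02 and of -0.14 without the deeper restimulated library. Differences in genes near 3 reads (0.183 to 0.340 CPM in these libraries) were not detectable at this depth.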
